A study of Mus musculus with 6 samples.

Results

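The genes described here carry the transforming growth factor beta (TGF-β) signal from ligand to nucleus: the ligand gene Tgfb1, the receptor genes Tgfbr1 and Tgfbr2, the SMAD genes Smad2, Smad3, Smad4 and Smad7, and the co-repressor genes Ski and Skil. They were taken by symbol, without regard to their values, and all 9 were found among the 16383 genes analysed. All 9 passed the filter on low counts, which left 12199 genes to test. RNA levels came from innate lymphoid cell precursors (ILCPs), the marrow progenitors from which innate lymphoid cells develop. There were 3 libraries of GFP+ ILCPs, in which GFP reports expression of the ET-2 transgene, and 3 of GFP- ILCPs. Both groups came from the same Rag1-cre;ET-2 mice (strain C57BL/6), each replicate from a pool of 4 to 5 animals that supplied both fractions. The sort kept cells with IL7Rα, CD90 and α4β7 and without lineage markers, Flt3 or CD25. As background, ET-2 joins transactivating parts of E47, an E protein, to the part of TAL1 that contacts DNA. Cre is driven from Rag1, and mice with Rag1-cre alone are not among the samples, so a history of Cre activity and expression of ET-2 cannot be told apart.

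TGF-β binds the type II receptor TGFBR2, which recruits and phosphorylates the type I receptor TGFBR1. TGFBR1 then phosphorylates SMAD2 and SMAD3, which join SMAD4 and enter the nucleus, while SMAD7 blocks the receptor and SKI and SKIL (SnoN) repress SMAD-driven transcription. In mice, TGF-β signalling is known to shape innate lymphoid cells, among them the balance between natural killer cells and group 1 innate lymphoid cells.

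Library totals ran from 10432461 to 15042354 estimated counts in GFP+ ILCPs and from 11680512 to 19038554 in GFP- ILCPs. Replicate 3 of the GFP+ group stood apart: it had 11240 genes above 0, the fewest of the 6 libraries, and gave 2.97% of its counts to immunoglobulin genes, against at most 0.135% in the other libraries. Its summed level of 8 B and plasma cell markers was 24273 CPM (counts scaled to library size). This sum was 431 and 593 CPM in the other GFP+ libraries and 608 to 1505 CPM in GFP- libraries. Of the 6 of these markers tested, 5 had a fold change (GFP+ over GFP-) above 0. Of the genes behind the sort, Il7r stood at 1259, 2459 and 2471 CPM in replicates 1, 2 and 3 of GFP+ ILCPs, against 1357, 1707 and 2679 CPM in the GFP- replicates. The 12 ILC precursor markers summed to 7929.6 to 20643 CPM in GFP+ against 10642 to 18843 CPM in GFP- libraries. GFP+ replicate 3 had the lowest sum, and 1 of the markers, Pdcd1, was at 0 there. That library was also the lowest of the 6 for Tcf7, Rora, Kit, Il18r1, Tox and Itga4. Tcf7, for example, stood at 343 CPM there, against 1114 to 3696 CPM in the others. The same library was the highest of the 6 for Itgb7, Thy1, Gata3 and Id2, with Id2 at 525 CPM against 167 to 280.2 CPM. In these bulk libraries, fewer cells of a type and less RNA per cell cannot be told apart.

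The stretches around the start sites of Tgfbr2 and Ski are printed because those genes were the members whose GFP+ and GFP- libraries did not overlap. Each runs from 250 bases before to 50 bases after the RefSeq start (GRCm38.p6), on the minus strand, and covers chr9:116175314-116175613 for Tgfbr2 and chr4:155222486-155222785 for Ski. Capitals mark matches to CANNTG, the E-box letters to which E proteins and TAL1 are known to bind.
Tgfbr2: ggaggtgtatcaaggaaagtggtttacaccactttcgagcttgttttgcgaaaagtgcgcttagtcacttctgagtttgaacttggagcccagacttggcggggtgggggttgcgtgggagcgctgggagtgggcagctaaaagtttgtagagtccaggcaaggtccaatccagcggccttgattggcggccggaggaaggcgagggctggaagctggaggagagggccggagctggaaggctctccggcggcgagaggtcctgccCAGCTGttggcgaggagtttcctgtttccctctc
Ski: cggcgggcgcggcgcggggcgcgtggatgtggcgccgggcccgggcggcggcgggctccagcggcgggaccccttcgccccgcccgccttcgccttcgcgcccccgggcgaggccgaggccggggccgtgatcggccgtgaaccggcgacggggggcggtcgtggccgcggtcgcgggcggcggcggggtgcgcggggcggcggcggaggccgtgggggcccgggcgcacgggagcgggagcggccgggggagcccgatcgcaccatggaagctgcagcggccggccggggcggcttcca
The Tgfbr2 window held 1 match, CAGCTG, whose first base is base 17 counted from the start site, and the Ski window held 0. Over 32851 windows of the same kind, 72.3% held CANNTG and 16.3% held CAGCTG on either strand, CAGCTG being one form of CANNTG. The windows of Tgfb1 and Smad3 and the first of the 2 Tgfbr1 windows held no CANNTG, and the second Tgfbr1 window held 1. CAGAC, the letters of a SMAD binding element, was found once in the Tgfbr2 window and once in the second Tgfbr1 window, and in no window of Ski, Tgfb1 or Smad3 nor in the first of Tgfbr1, against 49.6% of all windows on either strand. These are letter matches only, and binding was not measured. Windows were examined for 5 of the 9 genes. Those of Smad2, Smad4, Smad7 and Skil were not examined, so their letter matches are not known here.

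The comparison asked whether the genes of this pathway differ between ILCPs that express ET-2 and those that do not. Tgfbr2 and Ski stood higher in every GFP+ library than in any GFP- library, by 2.14-fold and 1.48-fold in edgeR's fit. Of all genes tested, 3.17% did so, and with scaling by library totals the groups of Ski overlapped. Smad7 stood lower in 2 of 3 pairs, Tgfbr1 was low in 1 GFP+ library, and Smad3 varied more among GFP+ libraries than between groups. edgeR's quasi-likelihood test called 0 of the 9 genes at an adjusted p (Benjamini-Hochberg) under 0.05, where it called 0 of 12199 genes in all, or 0%. At an unadjusted p under 0.05 it had 0 of the 9 and 394 of all genes, or 3.23%. DESeq2 called 0 of the 9 as well, against 60 of 14608 genes with an adjusted p, or 0.411%, and 153 of 12571, or 1.22%, with the replicate number as a block. The authors' deposited table lists 98 of 13948 genes at an adjusted p under 0.05, or 0.703%, and none of the 9 is among them. Of the 9 fold changes 4 were above 0, against 49% of all genes tested, and their median log2 fold change was -0.02 against -0.03 over all genes tested. The p-values of edgeR and DESeq2 rest on a spread between libraries that is moderated over all genes. They do not measure each gene's own spread between pools of mice alone, and the main fit had no term for the pool.

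**Figure D1:**
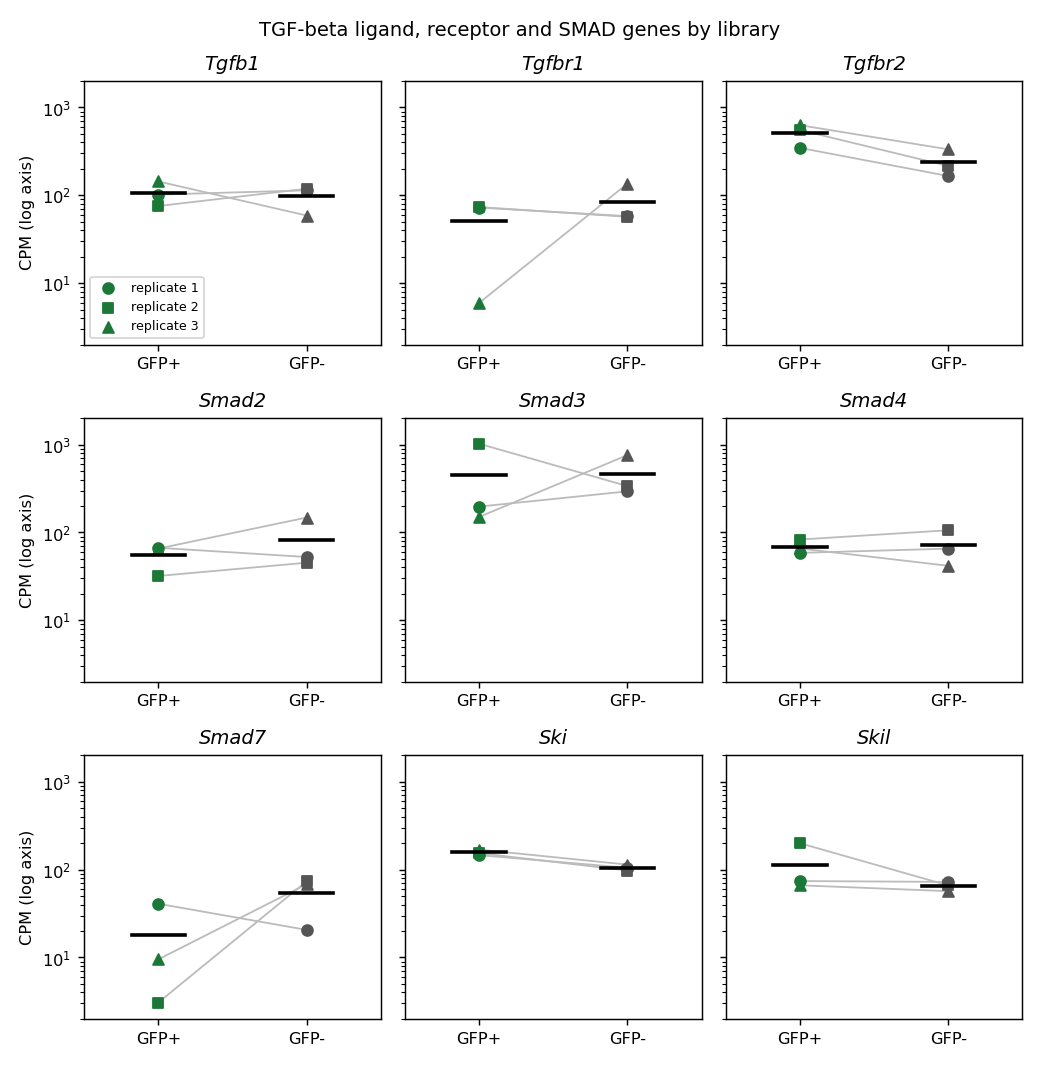
Level of each gene in CPM on a log axis, GFP+ libraries in green on the left and GFP- libraries in grey on the right of each panel; symbols are replicates, grey lines join fractions of the same pool and black bars are means. Tgfbr2 and Ski have all 3 GFP+ libraries above all 3 GFP- libraries, and Tgfbr1 has 1 GFP+ library at 5.95 CPM.

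Tgfb1 encodes TGF-β1, the form of the ligand that lymphoid cells mainly make, and lies on chromosome 7 at 25687002 to 25705077, plus strand (GRCm38, GENCODE vM21). It stood at 102, 75.6 and 144 CPM in replicates 1, 2 and 3 of GFP+ ILCPs, against 114, 119 and 58.9 CPM in the GFP- replicates. The groups overlapped, with GFP+ replicate 3 the highest and GFP- replicate 3 the lowest of the 6 libraries. edgeR gave Tgfb1 a log2 fold change of 0.14 ± 0.53 (SE; edgeR adjusted p = 0.998), with a 95% interval of -1.04 to 1.32. With scaling by library totals in place of TMM it was -0.11.

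Tgfbr2, the gene of the ligand-binding type II receptor, lies on chromosome 9 at 116084293 to 116175360, minus strand, and its start site is the first of the sequences printed above. It had 5474, 6675 and 5290 counts in GFP+ replicates 1, 2 and 3 and 2362, 4692 and 4297 counts in GFP- replicates, which is 347, 554 and 629.5 CPM in GFP+ ILCPs and 166, 216 and 334 CPM in GFP- ILCPs. The lowest GFP+ library stood just above the highest GFP- library. Tgfbr2 averaged 510.3 ± 146 CPM in GFP+ against 238 ± 86.6 CPM in GFP- libraries (SD, n = 3 each). Within the pools, the log2 differences were 1.07, 1.36 and 0.91, so that all 3 pairs differed in the same direction and by similar amounts. edgeR's log2 fold change for Tgfbr2 was 1.10 ± 0.51 (SE; edgeR adjusted p = 0.998), with a 95% interval of -0.03 to 2.22 and an unadjusted p of 0.0548. DESeq2 gave 1.17 ± 0.65 (SE; adjusted p = 0.903), and the authors' deposited table gives 1.18 ± 0.61 (SE; adjusted p = 0.63). Tgfbr2 therefore missed the threshold in every test over all genes. Of all genes tested, 387, or 3.17%, had all GFP+ above all GFP- libraries, as Tgfbr2 and Ski did among the 9, and 733, or 6.01%, had all GFP+ below, as 0 of the 9 did.

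The mast cell and basophil markers summed to 369, 1204 and 1082 CPM in GFP+ replicates 1, 2 and 3 and to 193, 189.6 and 920.1 CPM in the GFP- replicates, with Fcer1a at 0 in all GFP+ libraries. Of the 4 of these markers tested, 1 had a fold change above 0. Most of this sum in GFP+ libraries was 1 gene, the mast cell protease gene Cpa3, at 329, 1200.2 and 982 CPM in GFP+ replicates, against 149, 161 and 498 CPM in the GFP- replicates. The part of such cells in the Tgfbr2 values was not tested. Without GFP+ replicate 3, the library with the B and plasma cell signal, the log2 fold change of Tgfbr2 was 0.92 ± 0.50 (SE; edgeR adjusted p = 1). With scaling by totals the values were 429, 444 and 507 CPM in GFP+ against 202, 246 and 295 CPM in the GFP- replicates, which again did not overlap.

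Tgfbr1, the gene of the type I receptor kinase, lies on chromosome 4 at 47353222 to 47414931, plus strand. It stood at 72.5, 73.6 and 5.95 CPM in replicates 1, 2 and 3 of GFP+ ILCPs, against 58, 57 and 136 CPM in the GFP- replicates. GFP+ replicate 3 was the lowest of the 6 libraries with 50 counts, and its partner from the same pool was the highest with 1751 counts. The other pairs had Tgfbr1 slightly higher in GFP+ ILCPs, at log2 differences of 0.32 and 0.37 against -4.48 in pair 3. For Tgfbr1 the log2 fold change was -0.72 ± 0.85 (SE; edgeR adjusted p = 0.998), with an interval of -2.61 to 1.16. It was -0.20 without GFP+ replicate 3, -0.18 without GFP- replicate 3 and 0.34 without both, so the direction for Tgfbr1 rests on that pool.

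Because the receptors act as a complex, the ratio of Tgfbr2 to Tgfbr1 counts was taken within each library, where library size cancels. Tgfbr2 had 4.79, 7.53 and 106 times the counts of Tgfbr1 in GFP+ replicates 1, 2 and 3 and 2.85, 3.78 and 2.45 times in GFP- replicates. Every GFP+ library thus had a higher ratio than every GFP- library. On the log2 scale the ratio averaged 3.96 ± 2.40 in GFP+ and 1.58 ± 0.32 in GFP- ILCPs (SD, n = 3 each), a difference of 2.39. A two-sided exact permutation test gave p = 0.1, the smallest value that 3 against 3 libraries allow. This test, as for the other ratios, exchanged libraries freely and left the pairing by pool out of account. Over the 3 ratios tested (this one and the 2 described with the SMAD and co-repressor genes) the adjusted p was 0.3. The difference was 0.87 without replicate 3 of both groups.

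**Figure D2:**
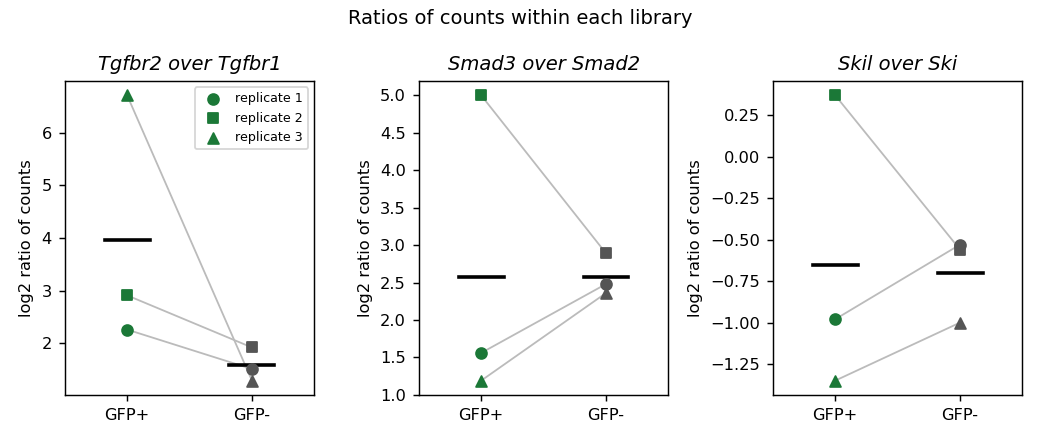
Log2 ratio of the estimated counts of 2 genes in each library, GFP+ on the left and GFP- on the right of each panel; symbols are replicates, lines join fractions of the same pool and bars are means. Tgfbr2 over Tgfbr1 lies between 2.26 and 6.71 in GFP+ and between 1.29 and 1.92 in GFP- libraries, while the other ratios overlap.

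Smad3 encodes a receptor-activated SMAD that binds DNA directly, and lies on chromosome 9 at 63646767 to 63757994, minus strand. It stood at 197, 1024 and 150.2 CPM in replicates 1, 2 and 3 of GFP+ ILCPs, against 294, 337 and 760.2 CPM in the GFP- replicates. GFP+ replicate 2 was the highest of all libraries and GFP+ replicate 3 the lowest, so the GFP+ values spanned those of GFP- ILCPs. The pair differences were -0.58, 1.60 and -2.34 on the log2 scale. Smad3 had a log2 fold change of -0.02 ± 0.76 (SE; edgeR adjusted p = 0.999), with an interval of -1.72 to 1.67. It was -1.43 without GFP+ replicate 2, 0.54 without GFP- replicate 3, and 0.38 and 0.40 without GFP+ replicates 1 and 3, so no direction can be given for Smad3.

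Smad2, whose protein shares the place of SMAD3 in the pathway, lies on chromosome 18. It stood at 67, 32 and 65.6 CPM in replicates 1, 2 and 3 of GFP+ ILCPs, against 52.6, 45.3 and 148 CPM in the GFP- replicates. The groups overlapped, and the highest value came from GFP- replicate 3. For Smad2 the log2 fold change was -0.58 ± 0.65 (SE; edgeR adjusted p = 0.998), and 0.16 without that library. Smad3 had 2.94, 32 and 2.29 times the counts of Smad2 in GFP+ replicates and 5.59, 7.43 and 5.15 times in GFP- replicates. GFP+ libraries therefore held both the highest and the lowest of these ratios, with group means of 2.58 ± 2.10 in GFP+ and 2.58 ± 0.28 in GFP- ILCPs on the log2 scale (SD, n = 3 each; two-sided exact permutation p = 1, adjusted over the 3 ratios 1). Without replicate 2 of both groups the difference was -1.05.

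Smad4, the common partner of the receptor-activated SMADs, also lies on chromosome 18. It stood at 58.6, 83.1 and 65.8 CPM in replicates 1, 2 and 3 of GFP+ ILCPs, against 65.5, 106 and 41.8 CPM in the GFP- replicates. The GFP+ libraries all fell within the range of the GFP- libraries. Smad4 had a log2 fold change of -0.04 ± 0.57 (SE; edgeR adjusted p = 0.999), with an interval of -1.30 to 1.22, and one of 0.41 without GFP- replicate 2.

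Smad7, the inhibitory SMAD that TGF-β itself induces in many cells, lies on chromosome 18 as well and had the largest fold change of the 9 in size. It had 644, 37 and 80 counts in GFP+ replicates 1, 2 and 3 and 294, 1608 and 878 counts in GFP- replicates, which is 40.9, 3.07 and 9.52 CPM in GFP+ ILCPs and 20.6, 73.9 and 68.3 CPM in GFP- ILCPs. GFP+ replicates 2 and 3 were the lowest libraries, while GFP+ replicate 1 stood above its GFP- partner. The log2 pair differences were 0.98, -4.53 and -2.82. Smad7 averaged 17.8 ± 20.2 CPM in GFP+ against 54.3 ± 29.3 CPM in GFP- libraries (SD, n = 3 each). Its log2 fold change was -1.60 ± 0.97 (SE; edgeR adjusted p = 0.998), with an interval of -3.77 to 0.56. Without GFP+ replicate 1 it was -3.05 ± 1.02 (SE; edgeR adjusted p = 0.43), and -1.12 without GFP+ replicate 2. GFP+ replicates 2 and 3 also had the fewest genes above 0 of the 6 libraries, 12576 and 11240, and the part of this in the low Smad7 values was not tested.

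Ski, the gene of a co-repressor that holds SMAD complexes inactive, lies on chromosome 4 at 155154075 to 155222592, minus strand. It stood at 146, 154 and 169 CPM in replicates 1, 2 and 3 of GFP+ ILCPs, against 105, 97.7 and 114 CPM in the GFP- replicates. The groups did not overlap, and values within a group lay close together. Ski averaged 157 ± 11.3 CPM in GFP+ against 105 ± 8.12 CPM in GFP- libraries (SD, n = 3 each), with log2 pair differences of 0.48, 0.66 and 0.57. The SD of its log2 CPM was 0.10 in GFP+ and 0.11 in GFP- ILCPs, where the median gene tested had 1.29 in GFP+ and 0.72 in GFP- ILCPs. For Ski the log2 fold change was 0.57 ± 0.45 (SE; edgeR adjusted p = 0.998), with an interval of -0.44 to 1.58. With scaling by totals Ski stood at 181, 124 and 136 CPM in GFP+ against 128, 112 and 100.4 CPM in the GFP- replicates, which overlap, with a log2 fold change of 0.38.

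Skil encodes SnoN, a relative of SKI whose gene is itself a known target of SMAD signalling in other cells, and lies on chromosome 3 at 31095058 to 31122577, plus strand. It stood at 74.1, 199.9 and 66.3 CPM in replicates 1, 2 and 3 of GFP+ ILCPs, against 72.5, 66.1 and 56.9 CPM in the GFP- replicates. GFP+ replicate 2 was far above the other libraries, which lay close together. Skil had a log2 fold change of 0.80 ± 0.59 (SE; edgeR adjusted p = 0.998), and one of 0.10 without GFP+ replicate 2. Skil had 0.507, 1.29 and 0.393 times the counts of Ski in GFP+ replicates and 0.692, 0.677 and 0.5 times in GFP- replicates, so the ratio too was highest in GFP+ replicate 2. Its log2 averaged -0.65 ± 0.91 in GFP+ and -0.70 ± 0.26 in GFP- ILCPs (SD, n = 3 each; two-sided exact permutation p = 0.9, adjusted over the 3 ratios 1).

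**Figure D3:**
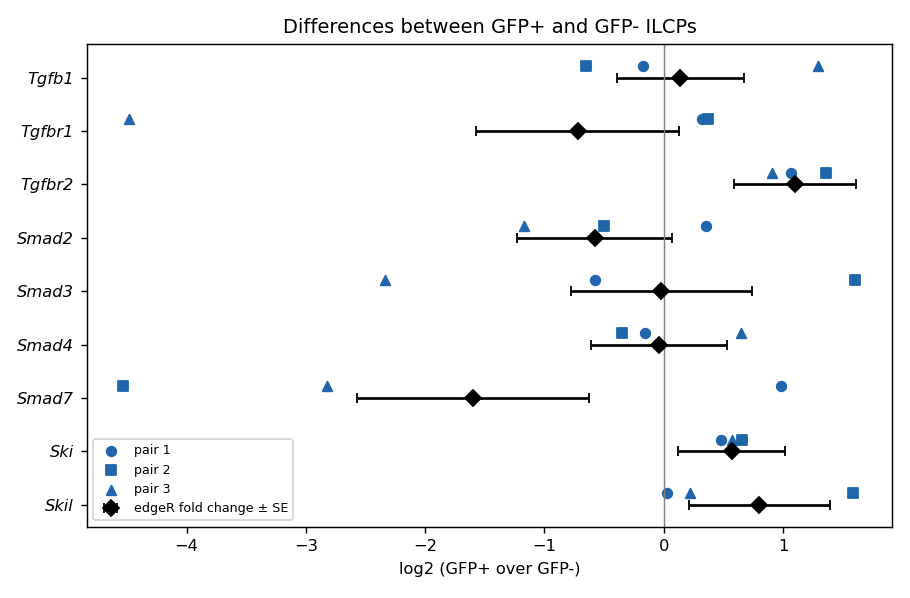
Log2 difference of GFP+ over GFP- ILCPs for each gene; diamonds with bars are edgeR's log2 fold changes ± SE over 6 libraries, and blue symbols are the 3 pairs of fractions from the same pool. Tgfbr2, Ski and Skil have all 3 pairs above 0, and the pairs of Tgfb1, Tgfbr1, Smad2, Smad3, Smad4 and Smad7 lie on both sides of 0.

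Set against each other, Tgfbr2, Ski and Skil were higher in GFP+ ILCPs in 3 of 3 pairs, where 8.7% of all genes tested were, and 0 of the 9 were lower in 3 of 3 pairs, where 15.3% of all genes were. For Skil the difference in pair 1 was 0.03 on the log2 scale. Tgfbr1, Smad3 and Smad7 had the widest spread among GFP+ libraries, with SDs of log2 CPM of 2.07, 1.50 and 1.84, against 0.72, 0.74 and 1.03 among GFP- libraries. The remaining genes, Tgfb1, Smad2, Smad4 and Skil, had SDs of 0.26 to 0.88 in GFP+ and 0.18 to 0.93 in GFP- ILCPs.

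Levels were set between genes per kilobase of merged exons in GENCODE vM21, as an approximation, since the lengths the authors used are not given in the sources used here. Smad3 had the highest mean level in GFP- ILCPs and, through replicate 2 alone, in GFP+ ILCPs, 82.5 ± 88.6 CPM per kilobase in GFP+ and 83.7 ± 46.6 in GFP- ILCPs (SD, n = 3 each). Tgfbr2 came next, at 62.3 ± 17.8 CPM per kilobase in GFP+ and 29.1 ± 10.6 in GFP- ILCPs. In GFP+ replicates 1 and 3 Smad3 stood below Tgfbr2, at 35.5 and 27.1 against 42.4 and 76.9 CPM per kilobase, and without GFP+ replicate 2 the GFP+ means were 31.3 for Smad3 and 59.6 for Tgfbr2, in the reverse order. In GFP+ ILCPs the order of mean levels went on with Ski, Tgfb1, Smad4, Skil, Tgfbr1, Smad2 and Smad7, from 28.2 down to 3.94 CPM per kilobase. In GFP- ILCPs it went on with Tgfb1, Smad4, Ski, Tgfbr1, Smad7, Smad2 and Skil, from 19.3 down to 6.73. Neighbours in these orders had overlapping ranges over libraries, except Tgfbr2 above Ski in GFP+ ILCPs and Smad3 above Tgfbr2 in GFP- ILCPs. Among all genes tested, mean CPM put Smad3 and Tgfbr2 at the 97.1st and 96.2nd percentile and Smad7 at the 60th, a scale that is not per length. No exon of the 9 genes overlapped an exon of another annotated gene.

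The genes whose pattern over the 6 libraries came closest to Tgfbr2 were Tram1, Map2k1 and Nedd4, by the root mean square difference of centred log2 CPM (0.12, 0.16 and 0.18 among 10630 genes). Tram1, for example, stood at 119, 234 and 248 CPM in GFP+ replicates, against 70.4, 88.8 and 149 CPM in the GFP- replicates. Closest to Tgfbr1 were Prrg3, Sypl and Elk1, at 0.16, 0.19 and 0.24. Sypl stood at 56.4, 44.9 and 4.4 CPM in GFP+ replicates, against 50, 50.9 and 93.9 CPM in the GFP- replicates, with the same low library as Tgfbr1. With 6 libraries and this many genes such likeness is a description only.

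Other genes of the TGF-β family pathway were taken from 8 lists by role. Of their 88 genes (Ctgf and Ccn2, symbols of 1 gene, counted once) 77 were in the table and 64 were tested, of which 36 were above 0 and 28 below 0 in fold change and 0 passed edgeR's test. None had an unadjusted p under 0.05, against 3.23% of all genes. DESeq2 called 0 of the 77, against 0.411% of all genes with an adjusted p, which not every gene had. The median log2 fold change was 0.21, against -0.03 over all genes tested. It was -0.07 with the replicate block and -0.03 with scaling by totals, where the median of all genes tested was -0.24 and -0.19. Within pools 1, 2 and 3 the median log2 CPM difference of these genes was 0.04, -0.40 and -0.24. The median over all genes tested was -0.01, -0.20 and -0.47 in the same pools. Of the 64, 0 had all GFP+ above all GFP- libraries and 4 had all GFP+ below, namely Tgfb3, Smurf1, Strap and Hdac1, against 3.17% and 6.01% of all genes tested, so the share below is near that of all genes.

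**Figure D4:**
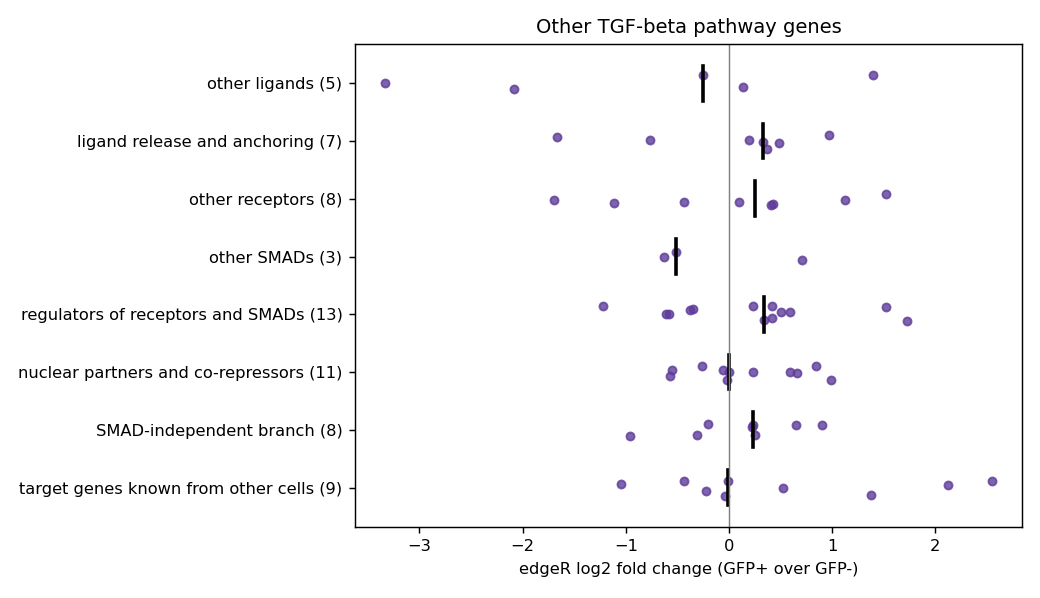
edgeR's log2 fold change (GFP+ over GFP-) of the other TGF-β pathway genes by role, with the number tested in brackets; each point is a gene and black bars are list medians. The medians run from -0.51 for the other SMADs to 0.34 for the regulators of receptors and SMADs.

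Among the other ligands, 2 of 5 tested genes were above 0 and 3 below. Tgfb3, a second TGF-β ligand, stood at 3.49, 1.91 and 0 CPM in replicates 1, 2 and 3 of GFP+ ILCPs, against 8.41, 8.96 and 37.7 CPM in the GFP- replicates. All GFP+ libraries lay below all GFP- libraries, with a log2 fold change of -3.33 ± 1.58 (SE; edgeR adjusted p = 0.998). Bmp2 and Bmp7, ligands of the bone morphogenetic protein branch, each had 1 library far above the rest, GFP- replicate 3 at 188 CPM for Bmp2 and GFP+ replicate 3 at 189 CPM for Bmp7.

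Of the genes for ligand release and anchoring, 5 of 7 were above 0 and 2 below. Furin, the protease that cuts the TGF-β precursor, averaged 268 ± 93.6 CPM in GFP+ against 214 ± 85.2 CPM in GFP- libraries (SD, n = 3 each). Nrros, which anchors latent TGF-β on myeloid cells, stood at 225, 80.4 and 414 CPM in GFP+ replicates, against 126, 199 and 43.3 CPM in the GFP- replicates. The 6 myeloid markers analysed summed to 909, 25.3 and 1621 CPM in GFP+ replicates, against 375, 169 and 278 CPM in the GFP- replicates. All 6 were tested and had a fold change above 0. Nrros, like this sum, was lowest among GFP+ libraries in replicate 2 and highest in replicate 3. Among GFP- libraries, by contrast, Nrros was highest in replicate 2, where the sum was lowest. The part of myeloid cells in the level of Nrros was not tested. Itgav, the integrin αV subunit that activates latent TGF-β, averaged 78.6 ± 41.4 CPM in GFP+ against 60.6 ± 16.7 CPM in GFP- libraries (SD, n = 3 each).

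The other receptors had 5 of 8 above 0 and 3 below. Acvr2a, an activin type II receptor, stood at 102, 100.3 and 89.8 CPM in GFP+ replicates, against 34.5, 20.3 and 166 CPM in the GFP- replicates, with GFP- replicate 3 the highest of all. Bmpr2, the type II receptor for bone morphogenetic proteins, averaged 258 ± 121 CPM in GFP+ against 192 ± 60 CPM in GFP- libraries (SD, n = 3 each). Eng, the co-receptor endoglin, stood at 36.4, 55.4 and 12.3 CPM in GFP+ replicates, against 105, 80 and 39.6 CPM in the GFP- replicates, lower in 3 of 3 pairs, with a log2 fold change of -1.11 ± 0.71 (SE; edgeR adjusted p = 0.998).

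Of the other SMADs, which serve mainly the bone morphogenetic protein branch, Smad5 stood at 61.9, 437 and 243 CPM in GFP+ replicates, against 81.9, 123 and 248 CPM in the GFP- replicates, and was above 0 in fold change while Smad1 and Smad9 were below. Smad1 averaged 22.6 ± 12.7 CPM in GFP+ against 32.3 ± 18.7 CPM in GFP- libraries (SD, n = 3 each), and no library had more than 3.27 CPM of Smad9.

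The regulators of receptors and SMADs had 8 of 13 above 0 and 5 below. Rnf111 (Arkadia), the ubiquitin ligase that targets SMAD7, SKI and SnoN for degradation, stood at 140.1, 188 and 19.3 CPM in GFP+ replicates, against 121, 127 and 273 CPM in the GFP- replicates. GFP+ replicate 3 was the lowest and GFP- replicate 3 the highest library, as for Tgfbr1. Smurf2, a ubiquitin ligase that acts with SMAD7 on the receptor, averaged 108 ± 84.9 CPM in GFP+ against 91.5 ± 29 CPM in GFP- ILCPs, and Fkbp1a, whose protein keeps the type I receptor inactive, 107 ± 33.3 CPM in GFP+ against 84.4 ± 31.2 CPM in GFP- libraries (SD, n = 3 each).

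Nuclear partners and co-repressors had 6 of 11 above 0 and 5 below. Their most abundant members were close in level between groups: the co-activator genes Ep300 and Crebbp had log2 fold changes of -0.02 ± 0.49 and 0.23 ± 0.53, and the co-repressor gene Ncor1 -0.06 ± 0.54 (SE; edgeR adjusted p of 0.998 to 0.999). The SMAD-independent branch had 5 of 8 above 0 and 3 below, with Tab2, Pik3r1 and Rock1 at -0.20 ± 0.56, -0.31 ± 0.71 and 0.25 ± 0.63 (SE; edgeR adjusted p = 0.998).

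Of 9 tested genes known as TGF-β targets in other cells, 4 were above 0 and 5 below. Junb, a subunit of the transcription factor AP-1, stood at 70.8, 4.07 and 758 CPM in GFP+ replicates, against 79.6, 45.6 and 16.3 CPM in the GFP- replicates, so 1 library held most of it. Bhlhe40, a transcriptional repressor, averaged 66.3 ± 48.6 CPM in GFP+ against 77.1 ± 36.3 CPM in GFP- ILCPs, and Rgs1, which dampens chemokine receptor signalling, 157 ± 150 CPM in GFP+ against 161 ± 132 CPM in GFP- libraries (SD, n = 3 each).

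**Figure D5:**
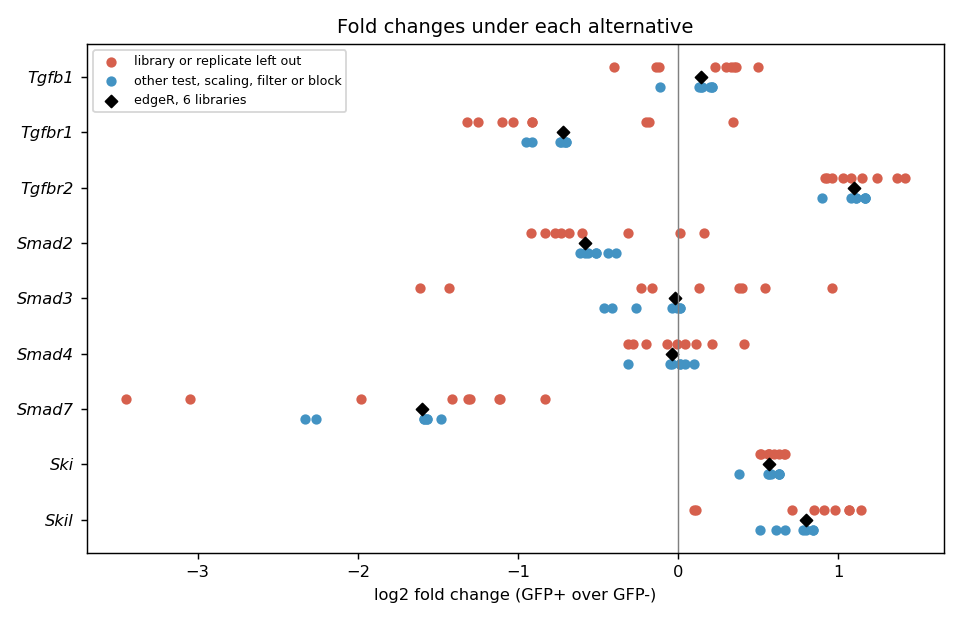
Log2 fold change (GFP+ over GFP-), by edgeR except where DESeq2 is the alternative, of each gene over 6 libraries (black) and under each alternative, with a library or replicate left out in red and another test, scaling, filter or replicate block in blue. Tgfbr2, Ski, Skil and Smad7 keep their side of 0 in all 16 alternatives, from 0.90 to 1.42, 0.38 to 0.67, 0.10 to 1.14 and -3.45 to -0.83.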

How the data were processed

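Columns of the table were assigned to libraries by the sample descriptions, which hold the column names, and the titles gave group and replicate. Per the labels' protocols, cDNA from total RNA was amplified by an isothermal method (Trio RNA-seq kit), ribosomal sequences were removed and paired reads of 75 bases were taken. Such amplification can leave low transcripts uncounted and widen the spread between libraries. The authors deposited estimated counts per gene, not whole and not scaled between libraries, and per the file headers the authors' log2 fold changes, p-values and a Wald statistic as a score. Tools named in the submitters' processing notes, with no version, are kallisto, Bowtie2, Trimmomatic and DESeq2, and the build is GRCm38. Strandedness and molecular identifiers are not given in the sources used here.

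Estimated counts were rounded and tested with edgeR 4.0.16 (quasi-likelihood, robust, TMM, filterByExpr, group as the only term; R 4.3.3) over 12199 genes, and with DESeq2 1.42.0. Both were also run on simulated counts with planted changes, and how many of these they called is not reported here. CPM use TMM sizes; log2 CPM have a prior count of 2, and ratios of genes a pseudocount of 0.5. Fold changes are GFP+ over GFP-. The edgeR test itself gives no SE. Those beside its fold changes are the absolute log2 fold change divided by the square root of the test's F statistic. The 95% intervals rest on these SEs and a t quantile. Same-numbered fractions came from 1 pool of mice per the labels, which pairs them; correlations of their deviations from group means were 0.161, -0.121 and -0.131. The main fit had no block. Alternatives changed the test, block, scaling and filter or left out libraries. Named were the 9 genes, the 3 tested genes of highest mean CPM in each pathway list and those with an unadjusted p under 0.05, which were none, and the 3 genes most like each receptor gene; further pathway genes whose groups do not overlap were named after their values were seen. Genes and lists were chosen with earlier results of these data known. Each marker list was computed over those of its genes that were analysed. The 6 T cell genes summed to 23 to 281 CPM in GFP+ against 81.8 to 165 CPM in GFP- libraries. For the 5 NK cell genes the sums were 33.3 to 60.3 against 80.6 to 181 CPM. For the 5 megakaryocyte genes they were 0.238 to 28.6 against 10.3 to 27.2 CPM. For 3 of 4 erythroid genes they were 0 to 57.7 against 1.09 to 19.5 CPM. For 5 of 6 stromal or endothelial genes they were 148 to 402 against 204 to 366 CPM. Nearly all of this last sum was 1 gene, Pecam1, at 148 to 401 CPM in GFP+ and 201 to 363 CPM in GFP- libraries. Figures were drawn with matplotlib 3.10.9.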

Additional observations from a re-analysis of the deposited data

How the results depend on the processing

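None of the 9 genes was called under any of the 16 alternatives. Over all genes, edgeR called 0 in each of its alternatives, while DESeq2 called 60 and, with the replicate block, 153. With the replicate block in edgeR, Tgfbr2 had a log2 fold change of 1.11 (adjusted p = 1) and Smad7 one of -2.33 (adjusted p = 1). DESeq2 with the block gave Smad7 an adjusted p of 0.451. The block changed no call among the 9 genes. Tgfbr2, Ski, Skil and Smad7 kept their direction throughout. Smad3 had 0.01 by DESeq2 and by DESeq2's size factors. Smad4 had 0.01 by both of these, 0.04 with the replicate block and 0.10 with the block in DESeq2. Tgfb1 had -0.11 with scaling by totals. The cause was not tested. With single libraries or replicates left out, the log2 fold changes ranged from -0.40 to 0.50 for Tgfb1, -1.32 to 0.34 for Tgfbr1, -0.92 to 0.16 for Smad2, -1.61 to 0.96 for Smad3 and -0.31 to 0.41 for Smad4. The ratio differences ranged from 0.87 to 3.20 for Tgfbr2 over Tgfbr1, -1.05 to 0.59 for Smad3 over Smad2 and -0.40 to 0.29 for Skil over Ski. The pathway median of 0.21 was -0.07 with the replicate block and -0.03 with scaling by totals, and ranged from -0.02 to 0.18 with libraries left out. The number of the 9 genes with all GFP+ above all GFP- libraries was 2 with TMM (3.17% of all genes), 1 with scaling by totals (2.12%) and 3 with DESeq2's size factors (3.43%). Leaving out a library cannot make groups overlap that did not, so this number could then only stay or rise. With single libraries left out it was 2 to 3, against 5.29% to 9.53% of all genes. It was 3 without GFP+ replicate 3 (7.62%) or GFP- replicate 1 (5.94%). All GFP+ libraries stood below for Smad7 without GFP+ replicate 1 (19.6% of all genes) or GFP- replicate 1 (9.42%), and for Smad3 without GFP+ replicate 2 (12.2%). These counts, and the levels per kilobase without a library, were chosen after seeing the data. The median log2 fold change of all genes was -0.19 with scaling by totals against -0.03 with TMM. The common biological coefficient of variation of the fit was 0.922, and 3 libraries a group limit the precision of all values.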
